A study of Mus musculus and Rattus norvegicus with 36 samples.

Results

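The comparison described here sets rat liver under toxic selenium (Se) intake against rat liver under high intake. Its members are the 6 arrays of rats fed 5 or 2 μg Se/g diet, 3 per diet, chosen by their labels from the 36 arrays of the series. All came from male weanling Holtzman rats kept for 28 days on a Se-deficient diet based on torula yeast, and sodium selenite was the only form of Se added. RNA was taken from perfused liver and each rat gave 1 array. Rats of the same study fed the unsupplemented basal diet or 0.24 μg Se/g, the Se-adequate level, share the estimate of the spread and are shown beside the 2 diets compared, which makes 12 arrays in the fit. The labels give no batch, and the replicate numbers are used here only as names of rats. Se intake was not the only difference between the rats compared. The study reports that rats at the toxic intake weighed less than those on every other diet. Their plasma alanine aminotransferase, a marker of liver damage, was also higher. A second marker, plasma aspartate aminotransferase, was above the level at 0.24 μg Se/g in rats fed 5, in those fed 2 and in deficient rats. The study therefore removed transcripts shared with caloric restriction data or a toxicity array. No such filter was applied here, and the part of growth and liver damage in the differences was not tested.

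Selenium enters selenoproteins as selenocysteine, and the transcripts of some of them, with Gpx1 the best known, fall in deficient liver. Excess selenite is reduced with glutathione to hydrogen selenide, methylated and excreted, and can form reactive oxygen species and damage hepatocytes on the way. The transcription factor Nrf2 drives the genes of glutathione synthesis, conjugation and export, while wound healing in liver involves stellate cells, endothelium, matrix proteins and the actin cytoskeleton.

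Values are log2 expression per probe set, so a difference of 1 is 2-fold. Medians of the 12 arrays lay between 6.26 and 6.29, and arrays have no read depth, so the number of arrays limits the precision. The rats at the lower of these intakes were unlike one another. Replicates 1 and 3 lay at least 2-fold apart in 2715 of 31042 probe sets, replicates 1 and 2 in 584 and replicates 2 and 3 in 463. Among the arrays at 5 μg Se/g the counts were 226, 342 and 365. Replicates 1, 2 and 3 at 2 lay at least 2-fold from the mean at 0.24 μg Se/g in 1964, 136 and 147 probe sets. For the arrays at 5 these counts were 839, 754 and 418. Replicate 3 at 2 and replicate 3 at 5 were 2-fold apart in 247 probe sets, fewer than separated replicate 3 at 5 from either other rat on its own diet. The probe sets of the Lys and Phe controls averaged 5.14, 5.49 and 5.84 in replicates 1, 2 and 3 at 2 μg Se/g. They averaged 5.75 to 6.16 in the other arrays of the study. These averages lay below the median of every array, and neither the labels nor the study say that such controls were spiked in. The 3′ Gapdh control was at 12.92, 13.26 and 13.39 in replicates 1, 2 and 3 at 2, and at 13.33 to 13.49 in the other arrays. The part of these differences in the results was not tested, and differences are therefore also given against single arrays at 2 for the main genes and for most lists.

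**Figure D1:**
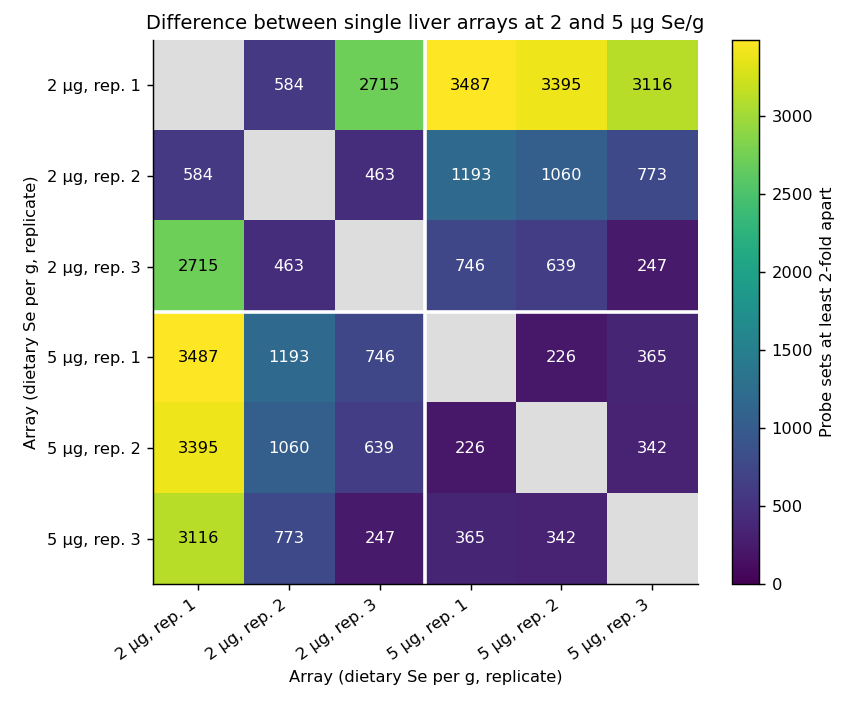
Number of probe sets at least 2-fold apart between each pair of the 6 arrays (both axes: dietary Se in μg/g and replicate; colour and number: probe sets of 31042). Replicate 1 at 2 μg Se/g stood 3116 to 3487 probe sets from the arrays at 5, whereas replicate 3 at 2 stood 247 to 746 from them.

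Against the mean of the 3 arrays at 2, the 3 arrays at 5 differed in 1037 probe sets at an adjusted p under 0.05 (limma, Benjamini-Hochberg). These were 662 higher (2.13% of those tested) and 375 lower (1.21%), and 7506 had an unadjusted p under 0.05. In all 1037 the 3 arrays at 5 lay wholly above or wholly below the 3 at 2, an order that 10.6% of all probe sets had upwards and 10.5% downwards. With replicate 1 as the only array at 2, 4052 probe sets were higher (13.1%) and 4580 lower (14.8%). With replicate 2 alone, 1121 were higher (3.61%) and 1199 lower (3.86%). With replicate 3 alone, 7 were higher (0.0226%) and 1 was lower (0.00322%), and 2184 had an unadjusted p under 0.05. The lone array is assumed to vary like the arrays of the other groups, and the median SE was 0.161 in each of these 3 fits, against 0.134 with all arrays. Pairs of arrays at 2 were at least 2-fold apart in 463 to 2715 probe sets, against 226 to 365 at 5. The assumed spread may therefore be too small for the arrays at 2. The fit of all arrays likewise pools 1 spread over the 4 diets. The 3 fits with a lone array take the spread from the same other arrays. An adjusted p in them depends on the difference and on how many other probe sets differ in that fit. A larger adjusted p against replicate 3 therefore need not mean a smaller difference. Obp3, described below, differed by −4.55 from replicate 1 and by −4.86 from replicate 3.

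Of the 1037 called probe sets, 963 were also called against replicate 1 alone, 663 against replicate 2 alone and 8 against replicate 3 alone. No other probe set called against the mean was called against replicate 3 alone. Against 2 of the 3 single arrays 636 were called, against 1 of them 338, and against none 55. No probe set was called in opposite directions against different arrays at 2. Arrays at both diets set the count. It was 146 without replicate 2 and 238 without replicate 1 at 2 μg Se/g, 8262 without replicate 3 at 2, and 149 and 198 without replicates 1 and 2 at 5. Leaving out replicate 3 at 5 changed it little, to 1083. A fit of only these 6 arrays called 9 probe sets, 6 higher and 3 lower.

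The probe sets called against each of the 3 single arrays were 7 that rose (0.0226%) and 1 that fell (0.00322%). They represent Star, Tsx, Akr1b8, Cyp26a1, Col8a2, Prkar2b, Ampd3 and Mup5. Without replicate 3 at 5 μg Se/g there were 251 such probe sets, and without replicates 1 and 2 at 5 there were 5 and 6, of which 2 and 4 were among these 8. Star and Akr1b8 held in all 3 of these cases.

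Star encodes the protein that carries cholesterol into mitochondria at the first step of steroid synthesis. One of its probe sets was at 4.53, 4.66 and 4.83 in replicates 1, 2 and 3 at 2 μg Se/g and at 6.67, 7.31 and 7.20 in those at 5. The 3 rats at 2 were alike and far below all 3 at 5. The difference was 2.39 (SE 0.16, adjusted p = 0.00026), which is 5.23-fold. The second Star probe set, which has the higher mean, rose by 1.64 (SE 0.16, adjusted p = 0.001) and stood 1.60 to 1.68 above each rat at 2, with an adjusted p of 0.082 against replicate 3 alone.

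Akr1b8, an aldose reductase-like enzyme that removes reactive aldehydes, was at 6.48, 7.29 and 7.62 in the 3 rats at 2 and at 9.80, 10.25 and 10.18 in those at 5. The rats at 2 spread over more than 1 log2 unit and still lay clear of those at 5. The difference was 2.95 (SE 0.25, adjusted p = 0.00069), a 7.72-fold rise, and it was 2.46 against the highest array at 2. The mean at 0.24 μg Se/g was 5.45, and the array with the lowest level at 2 was above all 3 arrays there. Tsx, a gene named for its expression in testis, was at 4.39, 4.91 and 4.62 at 2 and at 8.59, 8.61 and 7.58 at 5. Its level at 2 was like that at 0.24 μg Se/g (4.55 ± 0.31, SD, n = 3). The rise was 3.62 (SE 0.29, adjusted p = 0.00069), or 12.3-fold.

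Cyp26a1, the cytochrome P450 that degrades retinoic acid, was at 6.07, 6.62 and 6.23 at 2 and at 8.24, 8.18 and 8.03 at 5. The 3 rats at 5 were close to each other, and the rise was 1.84 (SE 0.18, adjusted p = 0.001). Col8a2, a short-chain collagen, was at 6.67, 5.94 and 5.88 at 2 and at 7.78, 7.69 and 7.94 at 5. Here replicate 1 at 2, not replicate 3, was the array nearest to those at 5. The rise was 1.64 (SE 0.20, adjusted p = 0.0036).

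Prkar2b, a regulatory subunit of protein kinase A, rose by 1.04 (SE 0.11, adjusted p = 0.0016), with levels of 5.70, 5.89 and 5.56 at 2 and 6.81, 6.74 and 6.72 at 5. Ampd3, an AMP deaminase, rose by 0.87 (SE 0.14, adjusted p = 0.01), from 5.34, 5.04 and 4.72 to 5.84, 5.94 and 5.93. Both were at nearly the same level in the 3 rats at 5. The fits against single arrays take their spread partly from the arrays at 5, so a small spread there favours selection. That holds for Cyp26a1 as well. Mup5 belongs to the major urinary proteins, small carriers secreted by liver. The probe set that held against each array was dim, at 4.11, 4.10 and 4.27 at 2 and at 2.76, 3.15 and 2.86 at 5. It fell by 1.23 (SE 0.11, adjusted p = 0.001), and the other Mup5 probe sets fell by 1.76 and 1.16. Members of this family have similar sequences, so which of them each probe set measured is uncertain.

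**Figure D2:**
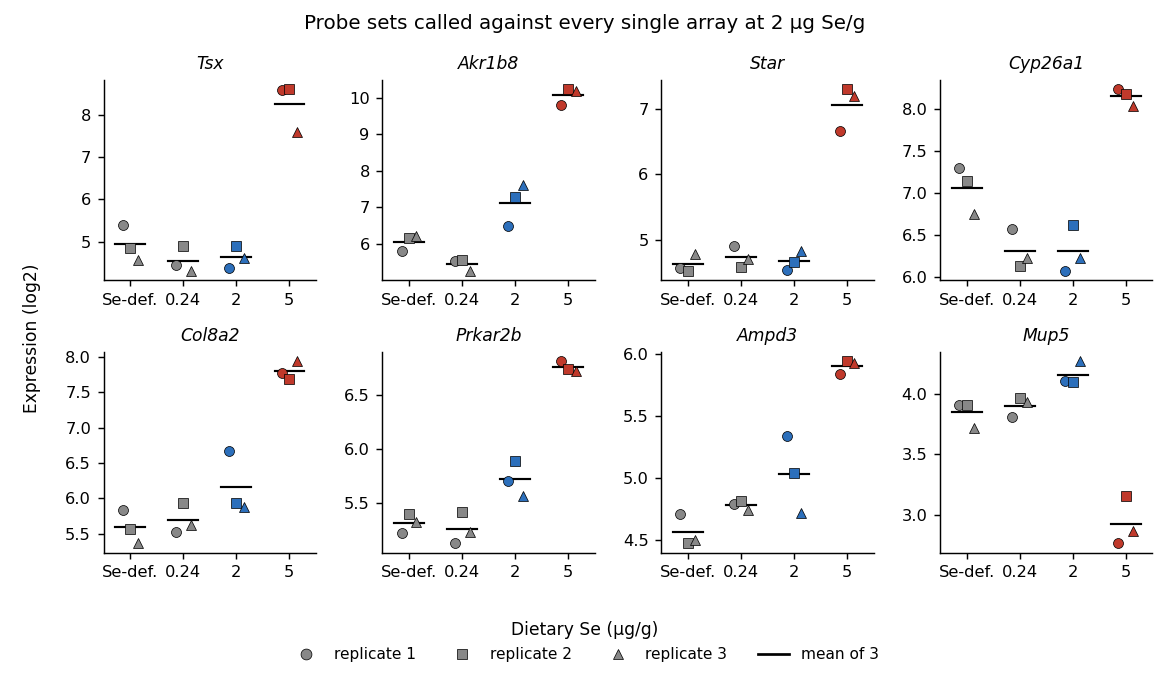
Log2 expression (vertical axes) of the 8 probe sets called against every single array at 2 μg Se/g, by diet (horizontal axes, dietary Se in μg/g, Se-def. is the unsupplemented diet). Symbols mark replicates 1 to 3 and lines the means. In 7 panels the 3 arrays at 5 lie above all others, and in the Mup5 panel they lie below.

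A rule of size asks less of a single array than a test does. The mean at 5 lay at least 2-fold above each of the 3 arrays at 2 in 151 probe sets (0.486%) and at least 2-fold below in 63 (0.203%), and 181 of these 214 were also called, 134 higher and 47 lower. Counted over 14217 genes with 1 symbol, each by its brightest probe set, 458 genes rose (3.22%) and 185 fell (1.30%). Of these 14217 genes 20.6% were higher and 14.5% lower against replicate 1 alone, 5.99% and 3.76% against replicate 2 alone, and 0.0422% and 0% (6 genes and none) against replicate 3 alone. By the rule of size 109 genes were higher (0.767%) and 35 lower (0.246%).

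The largest rise among the called genes was that of Fabp4, and Tsx and Akr1b8, described above, also ranked high. Fabp4, a fatty acid carrier of adipocytes and capillary endothelium, was at 4.47, 5.36 and 6.62 in the rats at 2 and at 9.34, 9.81 and 8.41 in those at 5. Its range at 2 was 2.15, and the nearest arrays of the groups were those of replicate 3. The rise was 3.71 (SE 0.48, adjusted p = 0.0046), or 13.1-fold, and it was 2.57 against replicate 3 alone (adjusted p = 0.16). Serpina7, thyroxine-binding globulin, was at 7.87, 6.84 and 7.62 at 2 and at 10.87, 11.56 and 10.89 at 5. It rose 12.7-fold (log2 3.66, SE 0.35, adjusted p = 0.001) and stood 3.24 to 4.27 above each rat at 2. Against replicate 3 alone its adjusted p was 0.07.

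Apln, the ligand apelin, was at 5.70, 5.4 and 5.76 at 2 and at 9.23, 9.99 and 7.42 at 5, a rise of 3.26 (SE 0.48, adjusted p = 0.008) and of 3.12 against replicate 3 alone (adjusted p = 0.29). The difference in another Apln probe set was 1.06, which was not called. The receptor gene Aplnr, chosen after its values were seen, rose by 2.18 (SE 0.51, adjusted p = 0.042) in 1 of its 2 probe sets and stood 0.65 higher in the other, which was not called. Esm1, the endothelial proteoglycan endocan, was at 4.08, 3.65 and 4.37 at 2 and at 6.48, 7.6 and 6.81 at 5. It rose by 2.93 (SE 0.25, adjusted p = 0.00069), and by 2.60 against replicate 3 alone (adjusted p = 0.053). Pcdh17, a protocadherin, rose by 2.72 to 3.44 in its 3 probe sets, all of them called.

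Ccn2, connective tissue growth factor, was at 7.92, 7.80 and 8.56 at 2 and at 11.26, 11.55 and 9.40 at 5. Replicate 3 at 5 stood nearly 2 log2 units under its group and within 1 unit of replicate 3 at 2. The rise was 2.64 (SE 0.45, adjusted p = 0.015), and the difference was 2.17 against replicate 3 alone (adjusted p = 0.45). Ankrd1, a nuclear target of Tgf-beta and Yap signalling, was at 4.45, 4.87 and 5.31 at 2 and at 7.30, 7.57 and 6.75 at 5. It rose by 2.33 (SE 0.23, adjusted p = 0.001), with 1.90 against replicate 3 alone (adjusted p = 0.082). Tagln (transgelin), Actg2 (smooth muscle gamma actin) and Tpm2 (beta tropomyosin), which belong to the contractile apparatus of smooth muscle and myofibroblasts, rose by 2.48, 2.33 and 2.31 (SE 0.43, 0.46 and 0.39). Against replicate 3 alone the differences were 1.41, 2.11 and 1.59, with adjusted p of 0.28, 0.49 and 0.32. The second Tpm2 probe set differed by −0.12.

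Igfbp2, which binds insulin-like growth factors, was at 6.05, 6.16 and 6.70 at 2 and at 8.61, 9.27 and 8.05 at 5, a rise of 2.34 (SE 0.27, adjusted p = 0.003) and of 1.94 against replicate 3 alone (adjusted p = 0.20). Nr1d1, the clock repressor Rev-erb alpha, rose by 2.95 (SE 0.60, adjusted p = 0.03), and its difference was 2.14 against replicate 3 alone (adjusted p = 0.64). Nr0b2, the repressor SHP of bile acid synthesis, was at 6.59, 8.56 and 7.37 at 2 and at 9.98, 10.25 and 9.30 at 5. Here replicate 2 was the array at 2 nearest to those at 5, and the rise of 2.33 (SE 0.53, adjusted p = 0.039) shrank to 1.28 against it (adjusted p = 0.26).

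The largest fall was that of Obp3, a lipocalin of the same urinary protein family as Mup5, for which the same uncertainty about paralogs holds. It was at 13.10, 13.16 and 13.42 in the rats at 2 and at 7.99, 8.40 and 9.26 in those at 5. Every rat at 2 stood more than 3 log2 units above the highest rat at 5. The fall was 25.6-fold (log2 −4.68, SE 0.43, adjusted p = 0.001). Against replicates 1, 2 and 3 alone the differences were −4.55, −4.61 and −4.86. Stac3, known for its part in muscle excitation, was at 11.53, 11.33 and 11.42 at 2 and at 6.78, 8.27 and 8.70 at 5. Its log2 difference of −3.51 (SE 0.47, adjusted p = 0.0054) was nearly equal against each of the 3 rats at 2 (−3.61 to −3.41). Cyp3a9, a steroid and drug oxidizing cytochrome P450, was at 9.26, 8.70 and 9.51 at 2 and at 6.03, 5.59 and 6.91 at 5. The difference was −2.98 (SE 0.43, adjusted p = 0.008). Against replicates 1, 2 and 3 alone it was −3.08, −2.52 and −3.33.

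Dhrs7l1, a short-chain dehydrogenase, differed by −4.02 (SE 0.95, adjusted p = 0.046), with levels at 5 of 6.96, 5.41 and 9.98. That group covered more than 4 log2 units, and the adjusted p against replicate 3 alone was 0.50. Zfp37, a zinc finger gene, and Fer1l5, a ferlin, fell by 3.46 (SE 0.45) and 2.79 (SE 0.28), with −3.13 and −2.42 against replicate 3 alone (adjusted p = 0.22 and 0.11). Vipr1, a receptor of vasoactive intestinal peptide, was at 10.82, 10.28 and 9.85 at 2 and at 7.22, 7.37 and 9.13 at 5, and Steap4, a metalloreductase, was at 10.72, 10.31 and 10.01 and at 7.49, 7.68 and 9.23. In both genes replicate 3 at 5 lay within 1 log2 unit of replicate 3 at 2 and the other 2 rats at 5 lay well below it. They fell by 2.41 (SE 0.41, adjusted p = 0.014) and 2.21 (SE 0.40, adjusted p = 0.018). Nox4, an NADPH oxidase that makes hydrogen peroxide, and Exph5, a vesicle trafficking gene, differed by −1.99 and −1.96, with adjusted p of 0.035 and 0.034 against the mean and 0.64 and 0.62 against replicate 3 alone.

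**Figure D3:**
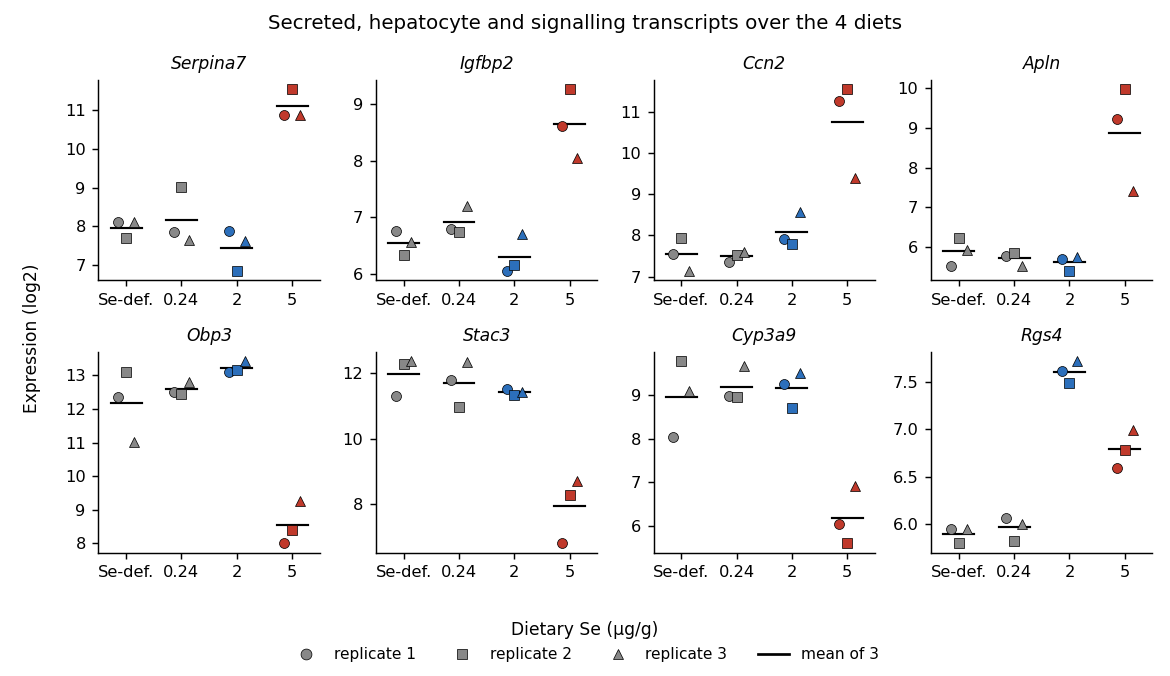
Log2 expression (vertical axes) of 8 transcripts over the 4 diets (horizontal axes, dietary Se in μg/g, Se-def. is the unsupplemented diet). Symbols mark replicates 1 to 3 and lines the means. Serpina7, Igfbp2, Ccn2 and Apln are highest and Obp3, Stac3 and Cyp3a9 lowest in the 3 rats at 5, and Rgs4 is highest in those at 2.

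Genes of the cytoskeleton and of the matrix were among those that rose. The lists used from here on were written from general knowledge, and no test of a list as a set was made. Over all genes 3.22% rose and 1.30% fell, which is the background of the counts of every list. In a short list few falls are therefore to be looked for. Among 32 measured genes of the actin cytoskeleton and adhesion, 13 rose and none fell, and the median difference was 0.66 against 0.02 over all genes. Flna (filamin A) was at 8.27, 8.49 and 8.82 at 2 and at 9.47, 9.63 and 9.27 at 5, a rise of 0.93 (SE 0.14, adjusted p = 0.0082). Vim (vimentin) was at 9.29, 9.64 and 10.31 and at 11.01, 11.45 and 10.90, and Myh10, a non-muscle myosin heavy chain, rose by 0.73 (SE 0.12). All 13 were called against replicate 1 alone, 11 against replicate 2 alone and none against replicate 3 alone, and the list medians were 0.69, 0.74 and 0.34. Leaving out 1 array gave 1 to 21 calls, lowest without replicate 2 at either diet and highest without replicate 3 at 2.

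Of 40 other matrix genes and enzymes of collagen processing, 11 rose and none fell, with a median of 0.47 and medians of 0.38, 0.53 and 0.31 against replicates 1, 2 and 3 alone. By size, 6 were at least 2-fold above each array at 2. Lama4 and Lama5, laminin chains of vessel and epithelial basement membranes, rose by 1.21 (SE 0.14, adjusted p = 0.003) and 1.28 (SE 0.16, adjusted p = 0.0046). Lama5 was at 6.11, 6.29 and 6.24 at 2 and at 7.39, 7.91 and 7.18 at 5. The 3 rats at 2 were nearly equal. Only 1 of the 2 Lama4 and 1 of the 3 Lama5 probe sets was called. Tnc (tenascin C), a matrix protein of injured tissue, was at 3.69, 3.95 and 4.17 at 2 and at 6.13, 6.48 and 5.09 at 5, and rose 3.90-fold (log2 1.96, SE 0.27, adjusted p = 0.0063). Loxl1, a collagen crosslinking enzyme, rose by 0.89. Without 1 array the list had 4 to 18 calls, lowest without replicate 2 at 2 or at 5 and highest without replicate 3 at 2.

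Of 20 listed collagens, a list without Col8a2, 4 rose and 1 fell by their brightest probe sets, and the median was 0.30. Col1a1, the alpha 1 chain of type I collagen, was at 7.32, 7.68 and 7.62 at 2 and at 8.97, 9.23 and 9.03 at 5. All rats at 5 stood more than 1 log2 unit above all at 2, and the rise was 1.54 (SE 0.22, adjusted p = 0.008) and 1.46 against replicate 3 alone (adjusted p = 0.25). The basement membrane chains Col4a1 and Col4a2 rose by 1.21 and 1.23 (SE 0.18 and 0.24). Their levels at 2 were highest in replicate 3, at 9.86 and 9.42, so that against this rat the differences were 0.82 and 0.59. Col15a1 rose by 0.69 (SE 0.14). The fall was that of Col14a1, a fibril-associated collagen named after its value was seen, from 10.98, 10.79 and 10.47 to 9.13, 9.33 and 10.33 (log2 −1.15, SE 0.27, adjusted p = 0.041). Col1a2, the partner chain of Col1a1, was not called by its brighter probe set, at 0.79 (adjusted p = 0.097), while the other rose by 1.39 (SE 0.29, adjusted p = 0.03). The main chain of type III collagen, Col3a1, differed by −0.39 (adjusted p = 0.24). Without 1 array, 2 collagens (without replicate 1 or 2 of either diet) to 7 (without replicate 3 at 2) rose. The collagen median was higher against replicate 3 alone (0.45) than against replicate 1 (0.33) or 2 (0.23).

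Of 26 Timp inhibitors and matrix proteases 4 rose, where 3.22% of all genes did, with a median of 0.04. There were 0 rises without replicate 2 at 2 and 7 without replicate 3 at 2. Timp3, a matrix-bound inhibitor of metalloproteinases, was at 8.53, 8.62 and 8.75 at 2 and at 10.15, 10.28 and 9.24 at 5 (log2 1.26, SE 0.21, adjusted p = 0.014). Its other 3 probe sets ran from 0.46 to 1.32 and 1 of them was called. Plat, tissue plasminogen activator, rose by 1.02 (SE 0.16). Of 24 Tgf-beta and Yap response genes 6 rose and 1 fell, with a median of 0.36, and 2 rose without replicate 1 or 2 at 2 and 12 without replicate 3 at 2. Tgif1, a corepressor of Smad proteins, was at 8.73, 8.78 and 8.72 at 2 and at 9.79, 9.88 and 9.49 at 5, and rose by 0.98 (SE 0.12, adjusted p = 0.0033). The fall, named after its value was seen, was that of the activin subunit Inhba (log2 −1.05, SE 0.24, adjusted p = 0.037).

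Of 18 angiogenic growth factors and receptors 7 rose and 1 fell, where 3.22% of all genes rose and 1.30% fell. The list median was 0.41. Pdgfa, a platelet-derived growth factor chain, was at 4.59, 5.08 and 5.42 at 2 and at 7.45, 7.51 and 6.67 at 5, a 4.53-fold rise (log2 2.18, SE 0.26, adjusted p = 0.003). Angpt2, the Tie2 ligand that loosens vessel walls, was at 5.10, 5.01 and 5.14 at 2 and at 6.80, 6.55 and 5.79 at 5, and rose by 1.30 (SE 0.20, adjusted p = 0.01). The fall was that of Kdr, the main Vegf receptor of sinusoidal endothelium (log2 −0.55, SE 0.12, adjusted p = 0.035, with its second probe set at 0.06). Without replicate 2 of either diet 1 gene of this list rose, and without replicate 3 at 2 there were 8.

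The label of the tissue was borne out by its markers. The defining hepatocyte markers were among the brightest on the array, and of 7 measured none was called, with a median of 0.01. Ttr, the thyroxine carrier transthyretin, was at 14.47, 14.50 and 14.46 at 2 and at 14.46, 14.38 and 14.44 at 5, near the top of the scale. Of 10 pericentral genes 3 fell and none rose, where 1.30% of all genes fell and 3.22% rose. The median was −0.57, with medians of −0.30, −0.70 and −0.54 against replicates 1, 2 and 3 alone. Cyp1a2, a pericentral cytochrome P450, was at 13.35, 13.18 and 13.33 at 2 and at 11.37, 12.11 and 12.10 at 5 (log2 −1.43, SE 0.19, adjusted p = 0.0055). Gulo, the last enzyme of vitamin C synthesis in rats, was at 12.81, 12.82 and 12.72 at 2 and at 11.20, 11.14 and 12.19 at 5 (log2 −1.28, SE 0.30, adjusted p = 0.043). Rgn (regucalcin) fell by 0.67 (SE 0.16). The rats at 2 were nearly equal in Cyp1a2 and Gulo, and the difference against a single rat ran from −1.49 to −1.32 in Cyp1a2, from −1.32 to −1.22 in Gulo and from −0.70 to −0.62 in Rgn. Against replicate 3 alone the adjusted p of Cyp1a2, Gulo and Rgn was 0.20, 0.60 and 0.54, and 1 gene of the list fell without replicate 1 or 2 of either diet and 5 without replicate 3 at 5. None of 10 periportal genes was called (median 0.10).

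Of 24 genes of the growth hormone axis and of male-pattern liver expression, 1 rose and 4 fell, with a median of −0.28 and medians of −0.31 to −0.24 against the single arrays. The rise was that of Igfbp2, and the falls were those of Obp3, Mup5, Rgn and the estrogen sulfotransferase Sult1e1. There were 2 falls without replicate 1 or 2 of either diet and 7 without replicate 3 at 2. Sult1e1 was at 13.15, 13.16 and 13.14 at 2 and at 12.31, 11.85 and 12.82 at 5 (log2 −0.82, SE 0.19, adjusted p = 0.045). Igfbp1 was at 8.36, 8.16 and 7.05 at 2 and at 10.98, 9.47 and 10.56 at 5, without overlap and with a difference of 2.48 that was not called (SE 0.74, adjusted p = 0.085). Of 35 cytochrome P450 genes 2 rose and 2 fell, with a median of −0.20, and over all genes 3.22% rose and 1.30% fell. Of the 4 calls, 3 were also called against replicate 1 alone, 3 against replicate 2 alone and 1, Cyp26a1, against replicate 3 alone. There were 1 rise and 2 falls without replicate 1 or 2 of either diet, and 3 and 8 without replicate 3 at 2. The smallest of these changes was the rise of Cyp2a1 by 0.51 (SE 0.13, adjusted p = 0.05 as rounded).

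Genes of selenium and sulfur metabolism had few calls. Cbs, which condenses homocysteine with serine and so opens transsulfuration, was at 12.34, 11.97 and 11.96 at 2 and at 11.13, 11.32 and 11.44 at 5. It fell by 0.79 (SE 0.12, adjusted p = 0.0086). Pstk, the kinase that prepares the selenocysteine tRNA, was at 6.88, 7.28 and 7.43 at 2 and at 7.90, 7.83 and 7.79 at 5, and rose by 0.64 (SE 0.14, adjusted p = 0.031). These were 1 fall and 1 rise among 17 genes, with a median of 0.04, where 1.30% of all genes fell and 3.22% rose. Both were also called against replicates 1 and 2 alone and neither against replicate 3 alone. Without 1 array there were 0 to 3 rises and 1 to 4 falls, lowest without replicate 1 or 2 of either diet and highest without replicate 3 at 2.

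Of 22 selenoproteins 2 rose and none fell. Selenom, an endoplasmic reticulum protein, was at 5.87, 6.67 and 7.39 at 2 and at 8.53, 8.61 and 8.15 at 5, a 3.44-fold rise (log2 1.78, SE 0.28, adjusted p = 0.011). Gpx3, the plasma glutathione peroxidase, was at 7.10, 7.43 and 7.97 at 2 and at 8.21, 8.17 and 8.63 at 5 (log2 0.84, SE 0.20, adjusted p = 0.049). In both the 3 rats at 2 were spread out, with replicate 1 lowest and replicate 3 highest. The median of the list was 0.27, and it was 0.43 against replicate 1, 0.27 against replicate 2 and 0.02 against replicate 3 alone. Against replicate 1 alone 10 selenoproteins were higher and 2 lower, against replicate 2 alone 4 and 1, and against replicate 3 alone none was called. The shares of all genes were 20.6% and 14.5% against replicate 1 alone and 5.99% and 3.76% against replicate 2 alone. Without replicate 3 at 2, 11 selenoproteins rose, and without replicate 2 at 2 or replicate 1 or 2 at 5 none did. Selenoh was at 9.01, 10.05 and 10.74 at 2 and at 10.82, 10.83 and 10.98 at 5. The rats at 5 were level, and the difference of 0.94 (adjusted p = 0.11) came to 0.13 against replicate 3.

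Gpx1, the cytosolic glutathione peroxidase and the selenoprotein most used as a marker of Se status, was at 13.61, 13.98 and 14.06 at 2 and at 13.95, 14.09 and 13.88 at 5 (log2 0.09, SE 0.12, adjusted p = 0.73). Gpx2 had the widest range at 2, with 4.60, 5.29 and 8.46, and was at 10, 6.6 and 7.95 at 5. The diets overlapped, and its difference of 2.06 was not called (SE 0.94, adjusted p = 0.21). Selenow was at 6.22, 6.59 and 7.97 at 2 and at 8.72, 8.30 and 7.85 at 5, which also overlapped (log2 1.36, SE 0.42, adjusted p = 0.093). Selenop, the plasma carrier of Se, and Txnrd1, a thioredoxin reductase, differed by −0.09 and −0.03.

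Of 29 measured Nrf2 targets 4 rose and none fell, where 3.22% of all genes rose and 1.30% fell. The list median was 0.35. The 4 that rose were Akr1b8, Slc7a11, Gstp1 and Abcc3, and all were at least 2-fold above each array at 2. Slc7a11, the cystine transporter that feeds glutathione synthesis, was at 4.48, 4.56 and 4.67 at 2 and at 6.21, 7.11 and 7.09 at 5. The 3 rats at 2 were alike, and the rise was 2.23 (SE 0.22, adjusted p = 0.001), with 2.13 against replicate 3 alone (adjusted p = 0.12). Abcc3, an exporter of conjugated bile acids and glucuronides, was at 7.85, 7.93 and 8.10 at 2 and at 10.78, 9.51 and 9.11 at 5 (log2 1.85, SE 0.36, adjusted p = 0.026). The nearest of its rats were 1 log2 unit apart. Hmox1, heme oxygenase, was just short of the threshold at 1.01 (SE 0.25, adjusted p = 0.052).

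Nqo1, a quinone reductase and a common marker of Nrf2 activity, was at 10.95, 11.43 and 11.54 at 2 and at 12.01, 11.63 and 11.35 at 5. The diets overlapped, and the difference was 0.36 (SE 0.18, adjusted p = 0.26). Gclc and Gclm, the subunits that set the rate of glutathione synthesis, differed by −0.25 and −0.01, and Srxn1, Txnrd1, Gsr and Osgin1 by 0.35, −0.03, −0.20 and 0.01. The medians of the list were 0.50, 0.29 and 0.14 against replicates 1, 2 and 3 alone, and without 1 array 2 to 11 targets rose, lowest without replicate 2 at 2 or replicates 1 or 2 at 5 and highest without replicate 3 at 2. Among 9 regulators of the pathway 2 rose, the small Maf partners Maff (log2 0.85, SE 0.13) and Mafk (log2 0.60, SE 0.10), with 0 rises without replicate 1 at 5 and 3 without replicate 3 at 2.

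For other families of enzymes the difference varied with the array at 2. Of 18 glutathione transferases 2 rose, Gstp1 and Gstm3, where 3.22% of all genes did. There were 15 rises without replicate 3 at 2 and none without replicate 2 at 2 or replicate 1 or 2 at 5. The list medians were 1.07, 0.44 and −0.02 against replicates 1, 2 and 3 alone. Subunits of the mitochondrial respiratory chain had no call against the mean among 29, with medians of 1, 0.30 and 0.02 against replicates 1, 2 and 3. Of 25 proteasome subunits none was called against the mean, and the medians were 0.72, 0.17 and −0.06. Of 14 peroxiredoxins, catalase and superoxide dismutases none was called against the mean, with medians of 0.83, 0.21 and −0.08. Over all genes the medians were 0.04, 0.05 and −0.01. Cyc1, cytochrome c1, shows the pattern at the level of 1 gene, with 11.35, 12.17 and 12.47 in the rats at 2 and 12.56, 12.54 and 12.57 in those at 5.

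**Figure D4:**
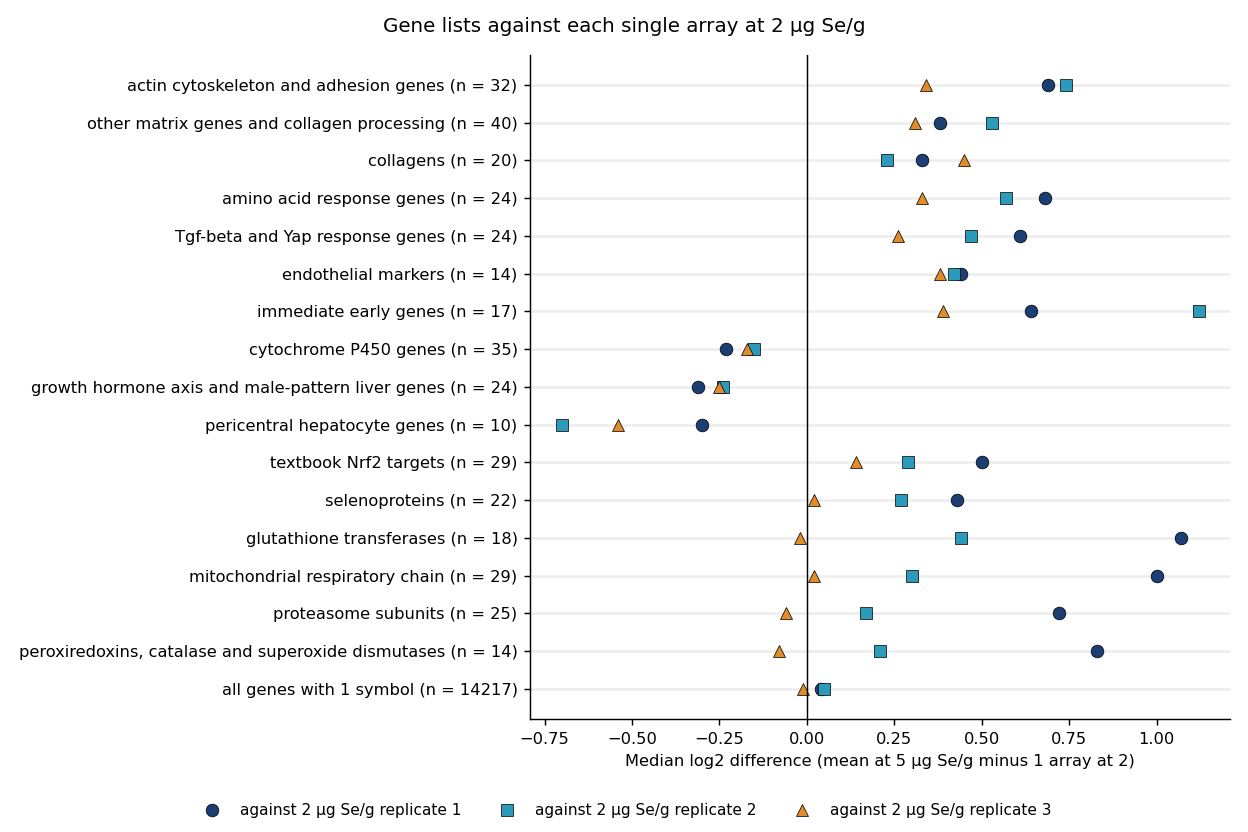
Median log2 difference between the mean of the 3 arrays at 5 μg Se/g and each single array at 2 μg Se/g (horizontal axis) for 16 gene lists and for all genes (vertical axis, n = genes measured). Symbols mark the array at 2. Medians of the actin, matrix, collagen and pericentral lists keep their sign against each array, while those of glutathione transferases, respiratory chain, proteasome and peroxiredoxins run from 0.72 or more against replicate 1 to 0.02 or less against replicate 3.

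The called genes with the widest range at 2 μg Se/g were Ramp2, Tagln, Gstp1, Fabp4, Cry1 and Gstm3. In all 6, replicate 1 at 2 was the farthest from the rats at 5, replicate 2 lay between and replicate 3 was the nearest. Ramp2, which partners the receptor of adrenomedullin, was at 6.22, 7.43 and 8.54 at 2 and at 9.70, 9.52 and 8.85 at 5. The difference was 3.13 against replicate 1, 1.93 against replicate 2 and 0.82 against replicate 3 (adjusted p = 0.58), and 1.96 against their mean (SE 0.44, adjusted p = 0.037). Gstp1, the pi class glutathione transferase, was at 8.83, 10.05 and 11.04 at 2 and at 12.45, 12.09 and 11.63 at 5. Its difference ran from 3.22 to 1.02 over the 3 arrays and was 2.08 against the mean (SE 0.41, adjusted p = 0.026). The 3 rats at 0.24 μg Se/g, at 9.63, 9.55 and 9.63, lay between replicates 1 and 2.

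Gstm3, a mu class glutathione transferase, was at 5.64, 6.09 and 7.65 at 2 and at 9.47, 8.56 and 7.79 at 5 (log2 2.15, SE 0.47, adjusted p = 0.034). Replicate 3 at 2 and replicate 3 at 5 were nearly level. Cry1, a repressor of the circadian clock, was at 9.76, 9.04 and 7.74 at 2 and at 6.46, 7.38 and 7.03 at 5, a fall of 1.89 (SE 0.46, adjusted p = 0.049) and of 0.78 against replicate 3 (adjusted p = 0.84). The plot of these genes by array shows the same order of rats in each.

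**Figure D5:**
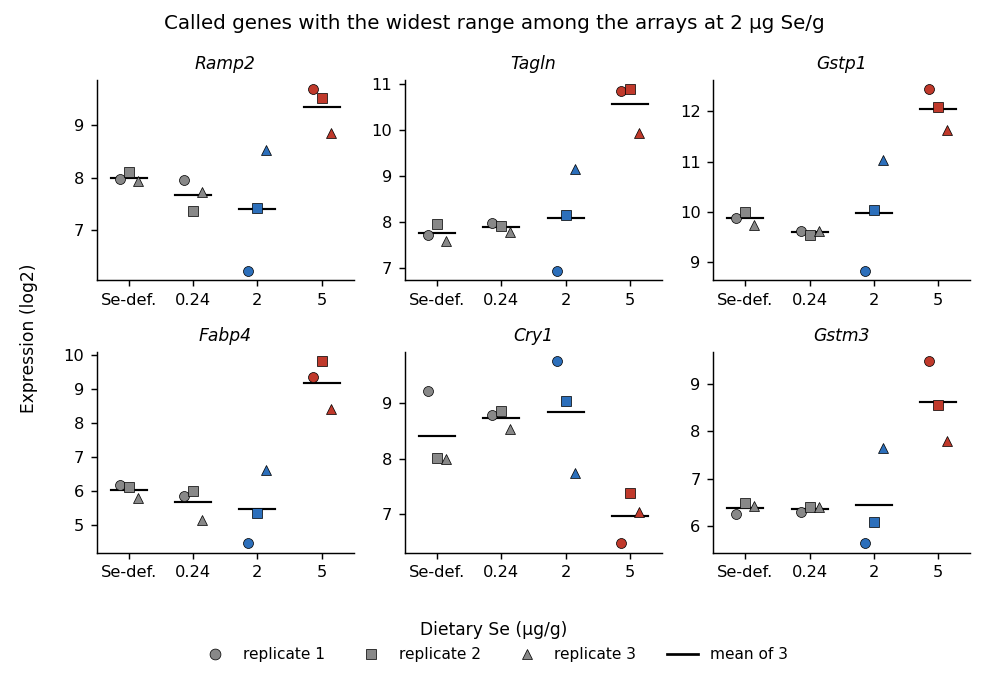
Log2 expression (vertical axes) of the 6 called genes with the widest range among the arrays at 2 μg Se/g, by diet (horizontal axes, dietary Se in μg/g, Se-def. is the unsupplemented diet). Symbols mark replicates 1 to 3 and lines the means. At 2 the circle (replicate 1) is farthest from the rats at 5 and the triangle (replicate 3) nearest, and the groups do not overlap.

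Among 24 amino acid response genes 6 rose and 1 fell, with a median of 0.45 and medians of 0.68, 0.57 and 0.33 against the single arrays. Besides Slc7a11, Asns, asparagine synthetase, was at 6.96, 7.36 and 7.54 at 2 and at 9.49, 8.60 and 8.77 at 5 (log2 1.67, SE 0.28, adjusted p = 0.013). Nupr1, a stress-induced chromatin protein, was at 8.56, 9.6 and 10.24 at 2 and level at 11.26, 11.17 and 11.27 at 5, a rise of 1.77 (SE 0.33, adjusted p = 0.022). Aldh1l2, a mitochondrial folate enzyme, fell by 1.11 (SE 0.21, adjusted p = 0.022), which is opposite to the other called members. The list had 1 rise without replicate 2 at 2 or replicate 1 at 5 and 12 without replicate 3 at 2. Only 1 of 19 endoplasmic reticulum stress genes rose, Herpud1 by 0.88 (SE 0.21), where 3.22% of all genes rose, and the median was −0.13. None rose without replicate 1 or 2 of either diet.

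Of 17 immediate early genes 6 rose and none fell, where 3.22% of all genes rose and 1.30% fell. The median was 0.62, with medians of 0.64, 1.12 and 0.39 against the single arrays. Egr1, an early growth response factor, was at 8.72, 7.52 and 8.09 at 2 and at 10.15, 9.89 and 10.14 at 5 (log2 1.95, SE 0.31, adjusted p = 0.01), with replicate 1 the nearest array at 2. Klf6, a zinc finger factor, was at 7.30, 7.49 and 7.62 at 2 and at 9.24, 9.06 and 8.49 at 5 (log2 1.46, SE 0.18, adjusted p = 0.0039). There was 1 rise without replicate 1 at 5, and there were 9 without replicate 3 at 2. Among 17 clock genes 3 rose and 3 fell, of which 6 were also called against replicate 1 alone, 4 against replicate 2 alone and none against replicate 3 alone. Without 1 array there were 1 rise (without replicate 2 at 2) to 5 and 0 falls (without replicate 1 or 2 of either diet) to 4, highest without replicate 3 at 2. Bhlhe41, a clock repressor, was at 4.18, 4.14 and 4.09 at 2 and at 5.44, 5.37 and 4.98 at 5 (log2 1.13, SE 0.14, adjusted p = 0.0046), and Per3 rose by 1.82 (SE 0.33) with its second probe set at −0.04. Besides Nr1d1 and Cry1, the remaining calls were falls of Npas2 by 1.08 and Clock by 0.80.

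Some markers of other liver cells also differed between the diets, where 3.22% of all genes rose and 1.30% fell. Of 14 endothelial markers 6 rose and 1 fell, Kdr, with a median of 0.39. Without replicate 1 or 2 of either diet 1 of them rose. The mean level of the list per array was 8.54 to 8.98 at 2 and 9.09 to 9.22 at 5. Tie1, an orphan receptor of endothelium, was at 7.10, 7.27 and 7.56 at 2 and at 8.59, 8.46 and 8.05 at 5 (log2 1.06, SE 0.15, adjusted p = 0.008), and the adhesion molecule Pecam1 and the clotting factor carrier Vwf rose by 0.71 and 1.06. Of 10 cholangiocyte and progenitor markers 3 rose, among them Krt19, a bile duct keratin, at 6.28, 6.69 and 7.07 at 2 and 9.38, 8.53 and 8.22 at 5 (log2 2.03, SE 0.32, adjusted p = 0.01). The list had 1 rise without replicate 1 or 2 of either diet and 5 without replicate 3 at 2. Its mean level was 7.14 to 7.78 at 2 and 7.71 to 8.45 at 5. In bulk liver, a change in the number of cells of a type and a change of RNA per cell cannot be told apart, and the part of these cells in the vessel and matrix results was not tested.

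Of 14 stellate cell and myofibroblast markers 2 rose and 2 fell, and 3 of these 4 were also called against replicate 1 alone, 2 against replicate 2 alone and none against replicate 3 alone. There were no rises without replicate 2 of either diet, no falls without replicate 1 or 2 of either diet, and 4 of each without replicate 3 at 2. Tagln and Acta2, markers of the contractile myofibroblast, rose by 2.48 and 1.06, while Lrat, which stores retinol as esters in resting stellate cells, and Reln (reelin), secreted by them, fell by 2.22 and 1.97. Lrat was at 9.69, 9.35 and 8.54 at 2 and at 6.50, 6.08 and 8.34 at 5. Replicate 3 at 5 was just below replicate 3 at 2, and the other 2 rats at 5 were more than 2 log2 units below all at 2. The fall had an SE of 0.47 and an adjusted p of 0.032, and 0.67 against replicate 3 alone. Reln was at 9.97, 10.27 and 10.33 at 2 and at 7.37, 7.81 and 9.47 at 5 (SE 0.39, adjusted p = 0.027). The mean level of the 14 markers was 7.20 to 7.40 at 2 and 7.09 to 7.50 at 5. Of 12 Kupffer cell and macrophage markers 1 rose and 1 fell, both also called against replicate 1 alone and neither against replicate 2 or 3 alone. Neither direction had a call without replicate 1 or 2 of either diet, and 6 rose without replicate 3 at 2. Spic rose by 1.30 (SE 0.26) and Clec4f, the receptor that defines resident Kupffer cells in rodents, fell by 1.49 (SE 0.33, adjusted p = 0.034). Lymphocyte, neutrophil and red cell markers had no call, and their mean levels were 5.5 to 5.79 and 5.91 to 6.09, 4.95 to 6.04 and 5.76 to 6.32, and 6.63 to 7.53 and 7.51 to 8.22 at 2 and at 5. Cell cycle genes, 37 of them, had no call and a median of −0.14.

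In the fit used here Rgs4 was the single gene called between 2 and 0.24 μg Se/g, and it also differed between 5 and 2. The study's own fit of 2 against 0.24 also called Ccdc80, Oxct1 and Cirbp, among others. Its qRT-PCR bore out the rises of Rgs4, Ccdc80 and Oxct1 at 2 but not the fall of Cirbp. Rgs4, a regulator of G-protein signalling, was at 7.62, 7.49 and 7.72 at 2, at 6.59, 6.78 and 6.99 at 5 and at 6.06, 5.82 and 6.0 at 0.24 μg Se/g. All rats at 5 lay between the other diets, and the level was 0.82 lower than at 2 (SE 0.12, adjusted p = 0.0078). It was 0.70 to 0.94 lower than in each rat at 2, with an adjusted p of 0.15 against replicate 3 alone. Hsph1, a heat shock protein, was at 11.48, 11.06 and 11.17 at 2 and at 10.62, 10.42 and 10.48 at 5, with a mean of 10.56 at 0.24 (log2 −0.73, SE 0.14, adjusted p = 0.021). Cirbp, a cold-inducible RNA-binding protein, was at 6.95, 6.95 and 7.11 at 2 and at 7.53, 7.72 and 7.74 at 5, with 7.87 at 0.24 (log2 0.66, SE 0.12, adjusted p = 0.019). Of its 3 probe sets 1 was called. The comparisons of these diets share the arrays at 2 and at 5.

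Grb10, an adaptor of the insulin receptor, was at 6.02, 6.20 and 6.46 at 2 and at 7.05, 7.12 and 6.94 at 5 (log2 0.81, SE 0.12, adjusted p = 0.0089). Its rats were ordered by diet, but 1 of its 3 probe sets was called. Oxct1, an enzyme of ketone use, was at 7.14, 6.84 and 6.84 at 2 and at 7.22, 7.33 and 7.35 at 5, without overlap and not called (log2 0.36, SE 0.10, adjusted p = 0.065). Ccdc80, a secreted matrix protein, was at 11.40, 11.20 and 11.11 at 2 and at 10.22, 10.56 and 11.02 at 5 (log2 −0.64, SE 0.17, adjusted p = 0.065). Sort1 (sortilin), Chsy1 (chondroitin synthase), Soat1 (cholesterol esterification), Tsku (tsukushi) and St3gal2 (a sialyltransferase) differed by 0.07, −0.11, 0.26, −0.39 and 0.05, and none of these was called. A second St3gal2 probe set rose by 0.65.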

How the data were processed

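Liver RNA of 12 male rats, 3 for each of 4 diets, was hybridised to rat genome arrays, 1 per rat. That these diets were fed in the same experiment is taken from the study's text, not from the labels. The authors deposited log2 expression values per probe set, summarised with GCRMA per the submitters' processing notes (version not given in the sources used here) and with RMA per the study's methods, so which of the methods made the values is unknown. Either method normalizes the arrays together at the level of probes, which makes the overall distributions of the probe sets alike but not equal. Here 57 array controls were left out and 31042 probe sets were tested. Symbols came from the platform annotation: 20826 probe sets had 1 symbol, 436 several and 9780 none. Genes (14217) were counted by the probe set with the highest mean over the 12 arrays.

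The mean at 5 minus the mean at 2 μg Se/g was fitted in limma 3.58.1 (R 4.3.3, lmFit and eBayes, 1 coefficient per diet), with Benjamini-Hochberg adjustment over all probe sets and a threshold of 0.05. The adjusted p against each single array at 2 comes from the same fit with 10 arrays, from which the other 2 arrays at 2 were left out. With 3 against 3 an exact permutation test of a single value cannot go below 0.1, so none is given. Named genes were, by rule, the genes called against every array at 2, the largest changes in each direction among called genes with the groups apart, those with the widest range at 2, genes of 46 lists and genes the study discussed. The members, rules and lists were chosen with earlier results of these data known. Scripts were tested on simulated data. Alternatives were a fit of the 6 or of all 18 rat arrays, trend and robust settings, array weights, quantile normalization, a filter on dim probe sets, leaving out 1 array at a time and blocking on the replicate number. Figures were drawn with matplotlib 3.10.9 in Python 3.11.15.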

Additional observations from a re-analysis of the deposited data

How the results depend on the processing

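The count of 1037 called probe sets (662 higher, 375 lower) came to 966 with limma's trend and robust settings and 989 after quantile normalization. It was 9 (6 higher, 3 lower) from only the 6 arrays of both diets, 2394 (1349, 1045) from all 18 rat arrays, 14962 (7555, 7407) with array weights, which did not converge, and 12897 (6432, 6465) with weights estimated gene by gene. The array weight of replicate 2 at 2 μg Se/g was 154, and those of the other arrays were 0.163 to 1.72. Without dim probe sets 690 were higher and 581 lower. Leaving out 1 array gave 146 to 8262 calls, 103 to 4044 higher and 40 to 4218 lower. With replicate 1, 2 or 3 as the only array at 2, the counts were 8632 (4052, 4580), 2320 (1121, 1199) and 8 (7, 1).

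The 8 probe sets called against every array at 2 (7 higher, 1 lower) became 7 with trend and robust settings, and 6 (lower 0) after quantile normalization. They became 0 (0 higher, 0 lower) from only 6 arrays, where 5 probe sets were called against replicate 2 and 0 against replicate 3. They were 39 (30, 9) from all 18 arrays, 45 (32, 13) with array weights, 17 (15, 2) with gene-by-gene weights, 3 (3, 0) without dim probe sets and 214 (151, 63) by the rule of size. The gene-by-gene weights and the rule of size were chosen after seeing the data. Leaving out 1 array at 5 gave 5 to 251 in all, 4 to 187 higher and 0 to 64 lower. The cause was not tested. Fewer arrays leave fewer degrees of freedom by construction.

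With a replicate block the count was 777 (504 higher, 273 lower). Same-numbered rats at 2 and 5 deviated together with r of 0.0154, 0.0795 and 0.0527 across probe sets, so the numbers were not taken to pair the rats. Of 147 named called genes, 138 were still called with trend and robust settings, 140 after quantile normalization, 104 with the block, 6 from only the 6 arrays and 45 to 147 without 1 array. None turned its direction. The groups did not overlap in any called probe set, so leaving out arrays could not have turned it, and this is no sign of stability.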

Other observations

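Smaller numbers of calls were found in groups of genes not described above. The shares over all genes, 3.22% higher and 1.30% lower, are the background of these counts. Of 18 interferon and inflammation genes 4 rose and none fell, with a median of 0.32. Against replicates 1, 2 and 3 alone 2, 2 and none of these 4 were called, and there were no rises without replicate 2 at 2 or replicate 1 or 2 at 5 and 6 without replicate 3 at 2. The chemokine Cxcl1 was at 7.16, 7.40 and 6.81 at 2 and at 8.53, 9.63 and 8.62 at 5 (log2 1.81, SE 0.41, adjusted p = 0.04), and the adhesion molecule Vcam1 rose by 1.36 (SE 0.29). Of 15 aldo-keto and carbonyl reductases 3 rose, Akr1b8, Akr1b1 and Akr1c15, the last 2 by 1.24 and 1. There was 1 such rise without replicate 2 at 2 or replicate 1 or 2 at 5, and there were 7 without replicate 3 at 2. Among 16 heat shock and cold-inducible genes 3 rose and 2 fell, with 1 to 6 rises and 0 to 3 falls without 1 array, both highest without replicate 3 at 2. Cryab, a small heat shock protein, was at 6.69, 7.52 and 8.12 at 2 and at 9.28, 9.64 and 8.94 at 5 (log2 1.84, SE 0.29, adjusted p = 0.01). The cold-inducible RNA-binding protein Rbm3 rose by 1.32 (SE 0.21).

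Of 13 p53 targets 2 rose, Gadd45b by 0.94 and the death receptor Fas by 0.96, both also called against replicates 1 and 2 alone and neither against replicate 3 alone. There was 1 such rise without replicate 1 or 2 of either diet and 3 without replicate 3 at 2. Of 15 regulators of G-protein signalling Rgs10 and Rgs2 rose by 1.5 and 0.87, and Rgs4 fell. There were no rises in this list without replicate 2 at 2 or replicate 1 or 2 at 5, and 4 without replicate 3 at 2. In lipid and sugar metabolism the fatty acid elongase Elovl5 and the liver glycogen phosphorylase Pygl fell by 0.78 and 0.58, and none of 17 genes of cholesterol synthesis was called (median 0.18).

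The limits are the number of rats and the spread at 2 μg Se/g. A single array has no spread of its own, so each adjusted p against 1 rat borrows that of the other arrays. It also depends on how many other probe sets differ from that rat. The labels give no batch, and why the rats at 2 differed was not tested. The diets compared also differed in growth and in a marker of liver damage, and the part of these in the results was not tested.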
